A study of Mus musculus with 32 samples.

Results

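Brown fat from the interscapular depot (iBAT), a tissue that lies between the shoulders and burns fuel to make heat, was compared between the early dark phase (ZT15) and the early light phase (ZT3), which lie 12 h apart. Zeitgeber time (ZT) counts the hours from lights on, so that ZT3 falls in the inactive phase of a nocturnal animal and ZT15 in its active phase. The comparison used the 4 libraries labelled ZT15 and the 4 labelled ZT3, 8 of the 32 libraries of the series, chosen by those labels and by no measured value. All 8 came from male C57BL/6J mice of 10 weeks that were fed chow ad libitum, were not fasted and for which the labels name no genetic change or treatment, with 1 mouse per library. The mice had been housed at 22 °C, which is mild cold for a mouse, under a 12h:12h light:dark cycle. The series covers 8 time points in steps of 3 h with 4 mice each. The libraries of ZT3 were sequenced on lane 2 and those of ZT15 on lane 3, so that lane and time of day cannot be told apart in this comparison alone. Mouse numbers below are the replicate numbers of the labels and do not link a mouse of ZT3 to a mouse of ZT15.

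Brown adipocytes burn fatty acids and glucose in mitochondria that are uncoupled by UCP1, and they refill their lipid droplets from lipoprotein triglycerides, from glucose and from glycogen turnover. Noradrenaline from sympathetic nerves drives this programme through beta-adrenergic receptors, cAMP and protein kinase A, while insulin and glucocorticoids carry the feeding rhythm to the tissue. Other daily signals reach every tissue, namely body temperature, to which heat-shock factor HSF1 and the cold-inducible RNA-binding proteins respond, and food-driven growth signals, under which cells build ribosomes. Collagens and other matrix proteins form the scaffold around adipocytes and vessels.

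The 8 libraries held from 16883314 to 17466245 counts. Values are given in CPM, the counts of a gene per 1000000 counts of the library after scaling between libraries, as means ± SD of 4 mice or mouse by mouse in the order 1 to 4. Of 14 markers of brown adipocytes all passed the filter on low counts and 13 exceeded 1 CPM in every library, the exception being Elovl3 in mouse 1 of ZT15. Mitochondrially encoded genes took 24.3 ± 0.859% of the counts at ZT3 and 23.9 ± 1.88% at ZT15 (exact permutation test, two-sided, P = 0.714). Some libraries stood apart. The summed level of the skeletal muscle markers was 229, 11074, 106 and 117 CPM at ZT3 and 10938, 2049.5, 6711 and 1131 CPM at ZT15, and none of its 24 tested members passed the threshold (none had an unadjusted P under 0.05 in edgeR, and DESeq2 called none). Below, the 3 muscle-rich libraries, those over 5000 CPM, are mouse 2 of ZT3 and mice 1 and 3 of ZT15. A fit without them keeps only mice 2 and 4 of ZT15. Fewer mice and less muscle RNA cannot be told apart where a call was lost in it. Another fit kept all libraries and took the muscle level as a covariate. Mouse 1 of ZT15 differed more than 2-fold from the median of the other 3 mice of its time point in 372 of 10356 genes with a mean of at least 5 CPM, against 74 to 188 genes for the other 7 libraries.

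Of 15505 tested genes, 2198 differed between ZT15 and ZT3, which is 14.2% of them. By edgeR's quasi-likelihood test with a Benjamini-Hochberg adjusted P under 0.05, 1069 genes (6.89%) were higher and 1129 (7.28%) were lower at ZT15, and the median log2 fold change of all tested genes was -0.01. In 2686 genes (17.3%) the values of the mice did not overlap between the time points. Because each time point was on 1 lane, the difference was also taken after centring on the neighbouring time points of the same lane, as ZT15 against the mean of ZT9 and ZT12 minus ZT3 against the mean of ZT0 and ZT6. This lane-centred difference cancels an additive lane effect but asks a narrower question. It called 1371 genes (8.84%), and 881 genes (5.68%) were called in both with the same sign. Only 88 genes were called when the test was for a change of over 1.5-fold. Counts moved with single mice. Brackets after the counts of a list give the percentage of its tested members called, to be read against the 14.2% of all genes, or the range of the counts with each of the 8 mice left out in turn. Without mouse 1 of ZT15 2645 genes were called, and without mouse 3 of ZT15 1480. Of the 20 clock and clock output genes tested, 9 were higher and 4 lower, and they are not described further.

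**Figure D1:**
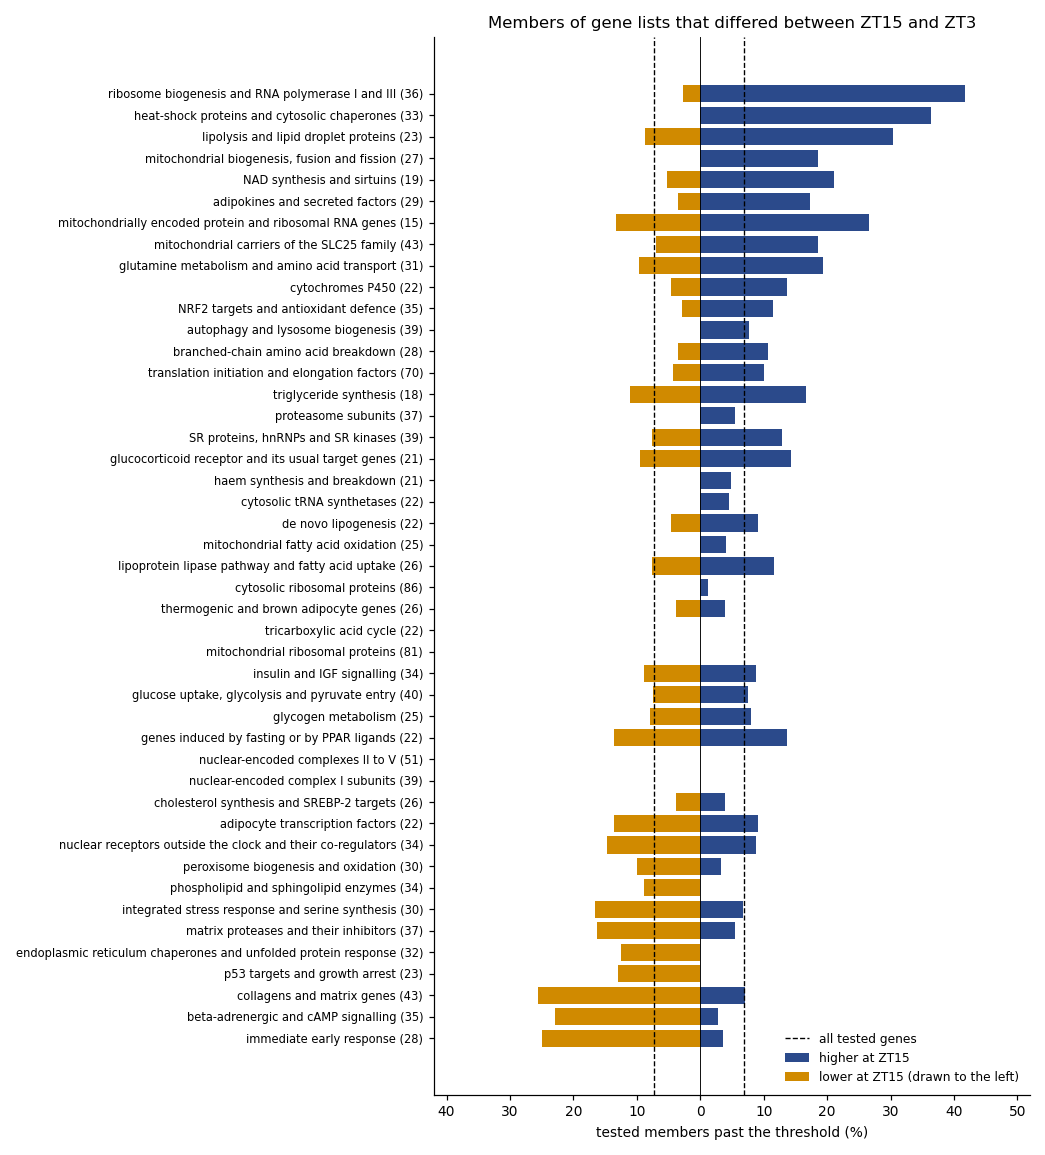
Each line is a list of genes of 1 process with at least 15 tested members, their number in brackets, the lists of clock, cell cycle, interferon and marker genes left out; blue bars give the percentage of members higher at ZT15 and ochre bars, drawn to the left, the percentage lower, both by edgeR at an adjusted P under 0.05. The dashed lines mark the percentages among all tested genes, 6.89 higher and 7.28 lower. Of the lists drawn, ribosome biogenesis and heat-shock genes extend furthest to the right, early response, matrix and cAMP genes furthest to the left, and the respiratory chain lists have no bar.

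Heat-shock proteins and cytosolic chaperones were among the groups with the most rises. Of 33 tested members 12 were higher at ZT15 and none lower (36.4% called), with a median log2 fold change of 0.41. All 12 were also called in the lane-centred difference, in which a high level at ZT0 raises the value. Hspa1b was high at ZT0 too. The ZT0 means of Hsph1 (174 CPM), Dnaja1 (130 CPM) and Hspa8 (727 CPM) lay above their means at ZT15. These calls are therefore not a check on lane alone. The risers were the inducible HSP70 genes Hspa1a and Hspa1b, the HSP110 gene Hsph1, the constitutive HSP70 gene Hspa8, the J-domain co-chaperones Dnaja1, Dnaja4, Dnajb1 and Dnajb4, the co-chaperones Bag3, Chordc1 and Ahsa2, and Hsf1, which encodes the transcription factor of the heat-shock response. Hspa1b (chr17:34956436-34959238, minus strand) lay at 0.72, 1.53, 1.51 and 1.76 CPM at ZT3 and at 14.5, 1.48, 15.4 and 18.1 CPM at ZT15. Mouse 2 of ZT15 stayed in the range of ZT3 and the other 3 mice were far above it, so the groups overlapped (log2 fold change 3.16 ± 0.50 SE, adjusted P = 9.79e-05). Without that mouse the log2 fold change was 3.53 (adjusted P = 8.58e-07). Its near-identical neighbour Hspa1a, with which reads may be shared, gave the same picture (log2 fold change 3.11 ± 0.49 SE, adjusted P = 9.23e-05).

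Hsph1 (chr5:149614287-149636376, minus strand) was at 61.0, 28.9, 73.5 and 26.9 CPM at ZT3 and at 151, 63.1, 145 and 149 CPM at ZT15, and mouse 2 of ZT15 was again the low one (log2 fold change 1.41 ± 0.33 SE, adjusted P = 0.0042). This call was lost without the 3 libraries richest in muscle transcripts (adjusted P = 0.137). That fit keeps only mice 2 and 4 of ZT15, and so the low mouse. Dnaja1, a co-chaperone of HSP70 (chr4:40722150-40737149, plus strand), rose from 57.2, 39.5, 66.4 and 48.7 CPM to 122, 76.5, 126 and 138 CPM without overlap (log2 fold change 1.13 ± 0.17 SE, adjusted P = 4.71e-05). A noncoding RNA gene, Gm6297, lies across its start, and whether the counting used strand was not stated. Hspa8, among the abundant members and named after its values were seen, rose without overlap as well, from 340.4 ± 116 to 628 ± 78.9 CPM (log2 fold change 0.88 ± 0.19 SE, adjusted P = 0.00183). Without the 3 muscle-rich libraries 8 of the 12 risers were called. With the muscle level as a covariate 12 members of the list were higher. The summed level of the list was 3390.5 ± 342 CPM at ZT3 and 4172 ± 596 CPM at ZT15, with 3288 CPM in mouse 2 of ZT15 against 4345 to 4532 CPM in the others (exact permutation test, two-sided, P = 0.0857).

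HSF1 binds inverted GAA repeats, and the stretch upstream of the genes that rose was searched for the minimal inverted pair, GAANNTTC or TTCNNGAA, each of which reads the same on both strands. The 250 bases before the start of transcription are shown for the inducible HSP70 pair, which had the largest rises of the group, from RefSeq promoters on GRCm38.p6, 5′ to 3′ on the strand of the gene, with the match in capitals. For Hsph1 a window of 30 bases around its match is given, since annotated transcripts cover the stretch.
Hspa1b: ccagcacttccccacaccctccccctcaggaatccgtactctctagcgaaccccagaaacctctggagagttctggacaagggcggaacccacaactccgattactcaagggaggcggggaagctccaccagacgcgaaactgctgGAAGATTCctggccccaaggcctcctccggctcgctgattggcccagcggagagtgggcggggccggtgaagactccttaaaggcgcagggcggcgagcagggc
Hspa1a: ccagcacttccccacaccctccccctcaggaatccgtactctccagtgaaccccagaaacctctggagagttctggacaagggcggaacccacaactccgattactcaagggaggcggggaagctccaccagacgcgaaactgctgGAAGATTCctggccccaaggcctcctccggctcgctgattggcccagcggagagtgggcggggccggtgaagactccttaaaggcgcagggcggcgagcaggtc
Hsph1: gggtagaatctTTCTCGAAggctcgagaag
The Hspa1b stretch is chr17:34959239-34959488, minus strand, and that of Hspa1a is chr17:34972157-34972406, minus strand. Neither overlaps an annotated exon. The Hsph1 window is chr5:149636351-149636380, minus strand, at the first of its 2 listed start sites. The match begins 104 bases before the start in both Hspa1 genes and 33 bases before it in Hsph1. Among the 12 risers 10 had a promoter in the table and 6 of these held a match (60.0%), the others being Dnaja1, Dnaja4 and Dnajb4. Of 17 list members with a promoter that were tested and not called, 5 held one (29.4%). The share was 12.2% among 10910 tested genes with a promoter and 14.5% among all 27025 genes of the table, so the short motif is common, and a match is a description and not a binding site.

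The pair of cold-inducible RNA-binding proteins moved in opposite directions. Cirbp (chr10:80165985-80172786, plus strand) was at 42.5, 34.2, 28.2 and 27.2 CPM at ZT3 and at 17.8, 14.8, 11.1 and 12.0 CPM at ZT15, lower in every mouse of ZT15 than in any mouse of ZT3 (log2 fold change -1.24 ± 0.18 SE, adjusted P = 2.35e-05). Rbm3 rose from 29.1 ± 6.76 to 41.5 ± 4.61 CPM, also without overlap (log2 fold change 0.51 ± 0.12 SE, adjusted P = 0.00662). The Rbm3 call was lost in the lane-centred difference (adjusted P = 0.0631) and without the 3 muscle-rich libraries (adjusted P = 0.0907), whereas the Cirbp call was kept in both (adjusted P = 4.12e-05 and 0.00124).

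Many genes of ribosome assembly rose, whereas genes of the ribosome itself passed the test in 1 case. Of 36 tested genes of ribosome biogenesis and RNA polymerases I and III, 15 were higher and 1 lower at ZT15 (44.4% called, median log2 fold change 0.27), and 8 of them also differed in the lane-centred difference. Nolc1, a nucleolar protein that binds the RNA modification machinery (chr19:46075863-46085530, plus strand), was at 24.5, 23.5, 27.0 and 30.5 CPM at ZT3 and at 45.3, 63.1, 65.9 and 73.0 CPM at ZT15 (log2 fold change 1.23 ± 0.17 SE, adjusted P = 1.63e-05). Nop2, an rRNA methyltransferase (chr6:125131909-125144753, plus strand), was at 14.3, 12.4, 13.2 and 17.0 CPM and at 23.2, 30.6, 30.8 and 32.9 CPM (log2 fold change 1.04 ± 0.16 SE, adjusted P = 4.71e-05). In both genes every mouse of ZT15 lay above every mouse of ZT3, and mouse 1 of ZT15 was the lowest of its group.

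Rrp12 and Heatr1, which act in ribosomal subunit maturation, rose from 7.05 ± 0.907 to 13.5 ± 1.18 CPM (adjusted P = 0.00241) and from 12.3 ± 1.32 to 22.1 ± 3.08 CPM (adjusted P = 0.000359). The other risers, from Noc2l to Bysl, had log2 fold changes between 0.32 and 0.56. Among the exceptions was the abundant nucleolar chaperone Npm1, which fell from 55.1 ± 4.55 to 44.9 ± 1.89 CPM (log2 fold change -0.29 ± 0.07 SE, adjusted P = 0.00632). The number of risers was 8 without mouse 2 of ZT3, 9 without mouse 4 of ZT15 and 5 without the 3 muscle-rich libraries. It was 18 with the muscle level as a covariate. The summed level of the list was 761 ± 56.8 CPM at ZT3 and 918 ± 57.7 CPM at ZT15 (exact permutation test, two-sided, P = 0.0286, the lowest that groups of this size allow, and 0.143 after adjustment over 15 such tests). By contrast, of 86 tested cytosolic ribosomal protein genes only Rpl12 passed, with its call lost for 6 of the 8 mice (median 0.06), of 70 translation factors 7 were higher and 3 lower (14.3% called, with from 2 to 10 higher when each mouse was left out), of 22 cytosolic tRNA synthetases 1 was higher (0 to 3 higher and 0 to 1 lower), and of 37 proteasome subunits 2 were higher (0 to 3 higher). The calls of Rrp12, Npm1 and Rpl12 were lost in the lane-centred difference (adjusted P = 0.0933, 0.122 and 0.0516).

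More collagen and matrix genes fell than rose. Of 43 tested members 11 were lower and 3 higher at ZT15 (32.6% called, median log2 fold change -0.30), 12 of them also in the lane-centred difference, and 7 of 43 had a fold change above 0. The basement membrane collagen Col4a1 (chr8:11198423-11312826, minus strand) was at 598, 575, 558 and 515 CPM at ZT3 and at 338, 292, 298 and 318 CPM at ZT15, with a wide gap between the groups (log2 fold change -0.85 ± 0.08 SE, adjusted P = 1.11e-07). Col5a3, a chain of fibrillar collagen V (chr9:20770050-20815067, minus strand), was at 64.1, 69.2, 73.8 and 68.8 CPM and at 35.0, 27.5, 23.1 and 28.9 CPM, again without overlap (log2 fold change -1.27 ± 0.14 SE, adjusted P = 6.86e-07). Fbn1, which encodes the microfibril protein fibrillin 1 (chr2:125300594-125507993, minus strand), fell from 43.6, 52.6, 40.3 and 26.7 CPM to 13.8, 12.6, 9.44 and 14.5 CPM (log2 fold change -1.70 ± 0.31 SE, adjusted P = 0.000406). The partner chain Col4a2 and the chains Col5a1, Col5a2, Col6a1, Col6a2, Col6a3 and Col15a1 were lower too, with log2 fold changes from -1.16 to -0.50. Of these, Col4a2 and Col15a1 were called with any mouse left out, and the others were not called without mouse 3 of ZT15 (highest adjusted P from 0.0767 to 0.153).

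Members that did not follow were the collagen prolyl hydroxylases P4ha1 and P4ha2, which modify collagen before it folds, and Col12a1, although the calls of P4ha1 and Col12a1 were lost for 6 and 4 of the 8 mice. P4ha2 rose from 6.82 ± 1.18 to 17.2 ± 5.95 CPM (log2 fold change 1.33 ± 0.22 SE, adjusted P = 0.000118). The fall of Thbs1, an adhesive glycoprotein, rested on mouse 3 of ZT3: it was at 4.68, 5.12, 25.4 and 9.76 CPM at ZT3 and at 3.42, 2.19, 2.74 and 3.23 CPM at ZT15 (log2 fold change -1.95 ± 0.45 SE, adjusted P = 0.00432, and 0.0604 without mouse 3 of ZT3). Without mouse 1 of ZT15 18 members were lower, without mouse 3 of ZT15 6, and without the 3 muscle-rich libraries 6. With the muscle level as a covariate 18 were lower and 3 higher. The summed level of the matrix list was 4956 ± 287 CPM at ZT3 and 3839 ± 557 CPM at ZT15 (exact permutation test, two-sided, P = 0.0571, and 0.171 after adjustment over 15 tests). Mouse 1 of ZT15, at 4573 CPM, lay within the range of ZT3 (4559 to 5241 CPM). The stromal markers that make up a separate list summed to 1379 ± 232 CPM at ZT3 and 1345 ± 404 CPM at ZT15 (exact permutation test, two-sided, P = 0.914), and none of 15 passed the edgeR test (1 had an unadjusted P under 0.05, and DESeq2 called none). The summed levels of lymphocyte and macrophage markers were 24.7 ± 5.53 CPM at ZT3 and 15.6 ± 2.44 CPM at ZT15 and 242 ± 44.7 CPM at ZT3 and 180.3 ± 52.6 CPM at ZT15. In bulk tissue, fewer cells of a type and less RNA per cell cannot be told apart. Thbs1 and Col12a1 were not called in the lane-centred difference (adjusted P = 0.246 and 0.902), where the sign of Col12a1 turned.

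Among matrix proteases and their inhibitors the few called members moved in both directions. Of 37 tested, 6 were lower and 2 higher (21.6% called). The aggrecanase Adamts4 (chr1:171250421-171260637, plus strand) fell from 2.94, 3.60, 4.64 and 3.94 CPM to 0.473, 0.355, 0.408 and 0.352 CPM, a low-level gene in which the groups were nonetheless well separated (log2 fold change -3.22 ± 0.34 SE, adjusted P = 2.98e-07). Adamts12 fell from 9.47 ± 1.47 to 4.69 ± 0.941 CPM (adjusted P = 0.00053) and Mmp14, a membrane-bound collagenase, from 13.1 ± 1.17 to 6.64 ± 1.48 CPM (adjusted P = 0.00103). Both risers were protease inhibitors: Timp4 rose from 33.1 ± 6.35 to 72.9 ± 10.9 CPM (log2 fold change 1.14 ± 0.20 SE, adjusted P = 0.000345) and Timp3 from 239 ± 35.4 to 364 ± 50.03 CPM (log2 fold change 0.61 ± 0.14 SE, adjusted P = 0.00473). Neither inhibitor was called in the lane-centred difference (adjusted P = 0.0917 and 0.584), and Timp3 was not called without the 3 muscle-rich libraries (adjusted P = 0.0809). The lane-centred difference shared 4 of the 8 calls of the list.

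**Figure D2:**
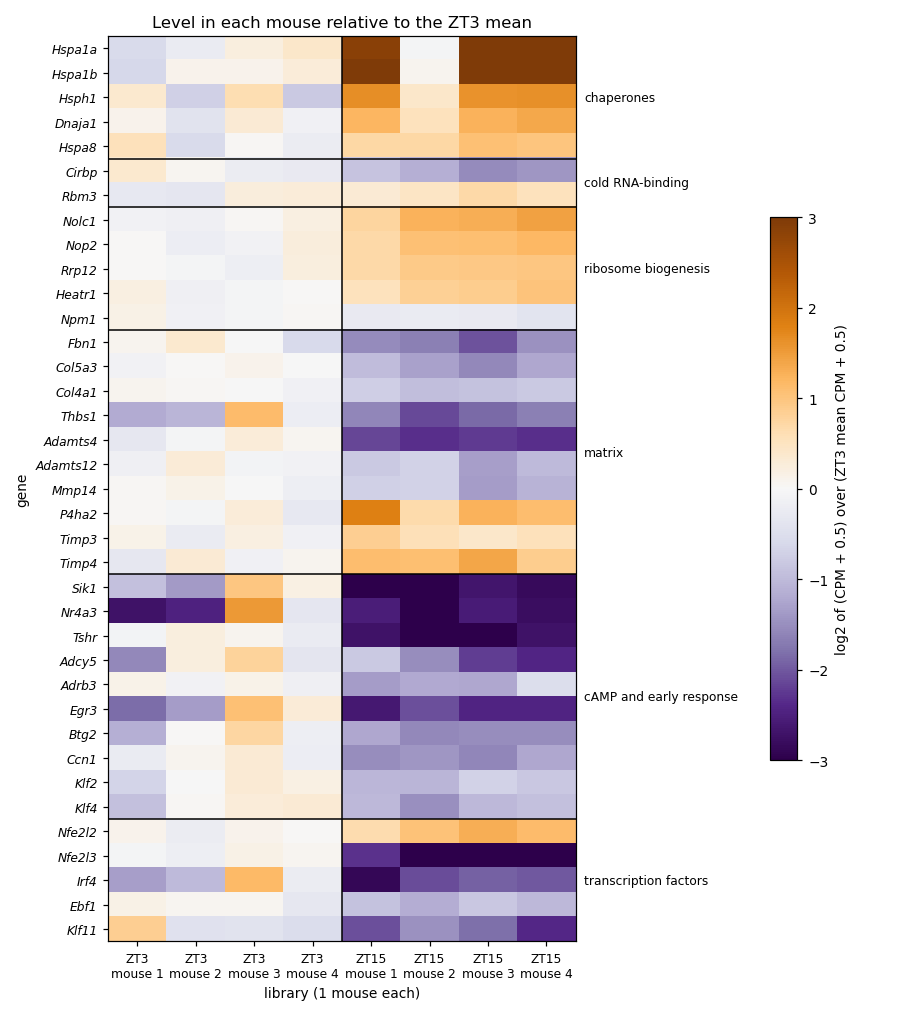
Each cell gives the log2 ratio of a gene's level in 1 mouse to the mean of ZT3, after adding 0.5 CPM, with the 4 mice of ZT3 on the left and those of ZT15 on the right; colours stop at 3 in either direction. Orange marks higher and purple lower levels. Mouse 2 of ZT15 is pale for Hspa1a and Hspa1b where the other mice of ZT15 are dark orange, and mouse 3 of ZT3 is the highest of its group for Sik1, Nr4a3, Egr3, Btg2 and Irf4.

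Of 22 tested genes that fasting or PPAR ligands are known to induce, 3 were lower and 3 higher (27.3% called), and 6 were lower without mouse 1 of ZT15. Pdk4, the kinase that shuts pyruvate dehydrogenase (chr6:5483351-5496309, minus strand), was at 1992, 1509, 2033 and 2117 CPM at ZT3 and at 623, 473, 400.5 and 334 CPM at ZT15 (log2 fold change -2.06 ± 0.35 SE, adjusted P = 0.000231). Angptl4, a secreted inhibitor of lipoprotein lipase (chr17:33773750-33781830, minus strand), was at 498, 478, 554 and 521 CPM and at 209, 87.6, 54.8 and 63.8 CPM (log2 fold change -2.30 ± 0.46 SE, adjusted P = 0.00114). In both genes all mice of ZT15 lay far below those of ZT3, and mouse 1 of ZT15 was the highest of its group. The lane-centred difference shared 4 of the 6 calls but not that of Angptl4 (adjusted P = 0.0963).

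Ehhadh, the bifunctional enzyme of peroxisomal beta-oxidation, fell from 125 ± 40.2 to 23.8 ± 4.13 CPM (log2 fold change -2.39 ± 0.51 SE, adjusted P = 0.00207), and its adjusted P was 0.0524 without the 3 muscle-rich libraries. The risers of the list were Lpin1, Cyp4b1 and Fabp3, the last with its call lost for 4 of the 8 mice and in the lane-centred difference (adjusted P = 0.35). Lpin1, a phosphatidate phosphatase of triglyceride synthesis, was at 627, 397, 458 and 524 CPM at ZT3 and at 762, 1076, 982 and 1249.8 CPM at ZT15, without overlap (log2 fold change 1.02 ± 0.18 SE, adjusted P = 0.0004). Of 25 mitochondrial fatty acid oxidation genes only Etfb passed the test, with its call lost for 5 of the 8 mice and in the lane-centred difference (adjusted P = 0.15), and without mouse 1 of ZT15 6 were higher.

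Insulin and IGF signalling genes passed the test in 6 of 34 cases, 3 higher and 3 lower (17.6% called), and without mouse 1 of ZT15 6 were higher and 5 lower. Irs2, the insulin receptor substrate (chr8:10984681-11008458, minus strand), was at 39.1, 39.0, 303 and 200.5 CPM at ZT3 and at 18.8, 12.5, 10.3 and 6.98 CPM at ZT15. The mice of ZT3 fell into low and high levels, yet each exceeded every mouse of ZT15 (log2 fold change -3.58 ± 0.74 SE, adjusted P = 0.00153). Tbc1d4 and Tsc1, which restrain glucose transporter traffic and mTORC1, were lower as well, with log2 fold changes of -0.48 and -0.39 (for Tbc1d4 adjusted P = 0.0634 without the 3 muscle-rich libraries). Sh2b2, an adaptor of the insulin receptor, was at 140.1, 102, 123 and 130.4 CPM at ZT3 and at 111, 248, 265 and 277 CPM at ZT15 (log2 fold change 0.86 ± 0.20 SE, adjusted P = 0.00446). Mouse 1 of ZT15 lay within the range of ZT3, and the other 3 mice were about alike and well above it (log2 fold change 1.09, adjusted P = 4.46e-05 without mouse 1). The lane-centred difference called 1 higher and 6 lower members, 3 of them shared, and lost Tbc1d4 (adjusted P = 0.34).

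The same mouse recurred in the glucose and lipid synthesis genes that follow. Hk2, the hexokinase of insulin-responsive tissues (chr6:82725025-82774454, minus strand), was at 296, 199.8, 294 and 264 CPM at ZT3 and at 235, 702, 873 and 851 CPM at ZT15 (log2 fold change 1.34 ± 0.31 SE, adjusted P = 0.00448). Without mouse 1 of ZT15 the log2 fold change was 1.62 (adjusted P = 0.000179). Ppp1r3b and Ppp1r3c encode subunits that bring protein phosphatase 1 to glycogen and so favour its synthesis, and they were the only risers among 25 glycogen genes, with 2 lower (16.0% called, 2 higher and 0 to 2 lower). Ppp1r3c (chr19:36731731-36736653, minus strand) was at 80.0, 75.6, 56.2 and 57.8 CPM at ZT3 and at 159, 230.5, 324 and 283 CPM at ZT15, without overlap (log2 fold change 1.89 ± 0.26 SE, adjusted P = 1.49e-05). Ppp1r3b was at 578, 359, 334 and 301 CPM and at 504, 1079.6, 1260.2 and 1304 CPM (log2 fold change 1.40 ± 0.32 SE, adjusted P = 0.00363), and mouse 1 of ZT15 lay inside the range of ZT3 (log2 fold change 1.63, adjusted P = 0.00066 without it). Of 40 genes of glucose uptake, glycolysis and pyruvate entry, 3 were higher and 3 lower (15.0% called, 6 and 4 without mouse 1 of ZT15), among the latter the lactate transporter Slc16a1, from 386 ± 59.5 to 221 ± 62.7 CPM (adjusted P = 0.00672). The Slc16a1 call was lost without the 3 muscle-rich libraries (adjusted P = 0.0799), and its sign turned in the lane-centred difference (adjusted P = 0.834). That difference shared 3 of 4 glycogen calls and 2 of 6 in the glycolysis list.

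Of 22 genes of de novo lipogenesis, 2 were higher and 1 lower at ZT15, a share close to the background. Mid1ip1, an activator of acetyl-CoA carboxylase, was at 94.9, 42.6, 47.6 and 48.5 CPM at ZT3 and at 64.3, 183, 200.4 and 211 CPM at ZT15 (log2 fold change 1.497 ± 0.32 SE, adjusted P = 0.00204, and 1.76 with adjusted P = 0.000131 without mouse 1 of ZT15). Srebf1, the lipogenic transcription factor, was at 523, 403, 413 and 384 CPM and at 357, 818, 944 and 985 CPM (log2 fold change 0.85 ± 0.23 SE, adjusted P = 0.0119, and 1.09 with adjusted P = 0.000251 without that mouse, but 0.0507 without mouse 3 and 0.0566 without mouse 4 of ZT15). Neither of the main enzymes that follow passed. Fasn, fatty acid synthase and the most abundant member, was at 20956, 13035, 21134 and 19667 CPM at ZT3 and at 2931, 19408, 17314 and 20609.6 CPM at ZT15 (adjusted P = 0.731). Acly, which makes cytosolic acetyl-CoA and was named after its values were seen, was at 4196, 1577, 3304 and 3153 CPM and at 631, 3986, 3039 and 4141 CPM (adjusted P = 0.962). For both enzymes mouse 1 of ZT15 was the lowest of the 8, and the other 3 mice of ZT15 lay within the range of ZT3. Without mouse 1 of ZT15 4 members of the list were higher and none lower, and without mouse 3 or 4 of ZT15 1 was higher. The Srebf1 call was also lost in the lane-centred difference (adjusted P = 0.318).

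Among 23 genes of lipolysis and lipid droplets, 7 were higher and 2 lower (39.1% called, 5 to 7 higher and 1 to 3 lower), against 6.89% and 7.28% of all genes. G0s2, the inhibitor of adipose triglyceride lipase (chr1:193272161-193273217, minus strand), was at 64.0, 220.2, 227 and 191 CPM at ZT3 and at 487, 532, 794 and 537 CPM at ZT15 (log2 fold change 1.74 ± 0.34 SE, adjusted P = 0.0008). Cidec, which fuses lipid droplets, rose from 562 ± 26.3 to 986 ± 126 CPM (log2 fold change 0.81 ± 0.14 SE, adjusted P = 0.000174). Both were higher in every mouse of ZT15, yet neither was called in the lane-centred difference (adjusted P = 0.164 and 0.797), and Plin3 was the only riser of the list that was. Acvr1c, the activin-like receptor that restrains lipolysis, fell from 148, 179, 148 and 129 CPM to 69.6, 78.3, 78.4 and 71.7 CPM, without overlap (log2 fold change -1.02 ± 0.16 SE, adjusted P = 9.86e-05, and 0.000833 in the lane-centred difference). Plin1, the main perilipin and also a marker gene, was lower by little, from 1083 ± 76.7 to 914 ± 35.5 CPM (log2 fold change -0.25 ± 0.08 SE, adjusted P = 0.0427, lost in 13 of 19 alternatives). In triglyceride synthesis 3 of 18 genes were higher and 2 lower (27.8% called), and Dgat2, which performs the last step, rose from 1904 ± 171 to 2952 ± 221 CPM (log2 fold change 0.63 ± 0.13 SE, adjusted P = 0.00149). The calls of Plin1 and Dgat2 were lost in the lane-centred difference as well (adjusted P = 0.0804 and 0.398). That difference shared 1 of the 5 calls in triglyceride synthesis.

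Among 26 genes of lipoprotein lipase and fatty acid uptake 3 were higher and 2 lower (19.2% called, 2 to 4 higher and 1 to 2 lower). Besides Angptl4, its relative Angptl8, which is induced by feeding and also acts on lipoprotein lipase, was at 34.4, 19.2, 23.8 and 24.3 CPM at ZT3 and at 19.2, 78.6, 156 and 84.2 CPM at ZT15 (log2 fold change 1.73 ± 0.46 SE, adjusted P = 0.0119). Mouse 1 of ZT15 lay at the lowest level of ZT3 and the other 3 mice were well above it, and the adjusted P was 0.00123 without that mouse and 0.0851 without mouse 3. Lpl, the lipase itself, was higher in every mouse of ZT15, rising from 3167 ± 276 to 4486 ± 462 CPM (log2 fold change 0.50 ± 0.12 SE, adjusted P = 0.00604), but its sign turned in the lane-centred difference (adjusted P = 0.628). That difference shared 2 of the 5 calls.

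**Figure D3:**
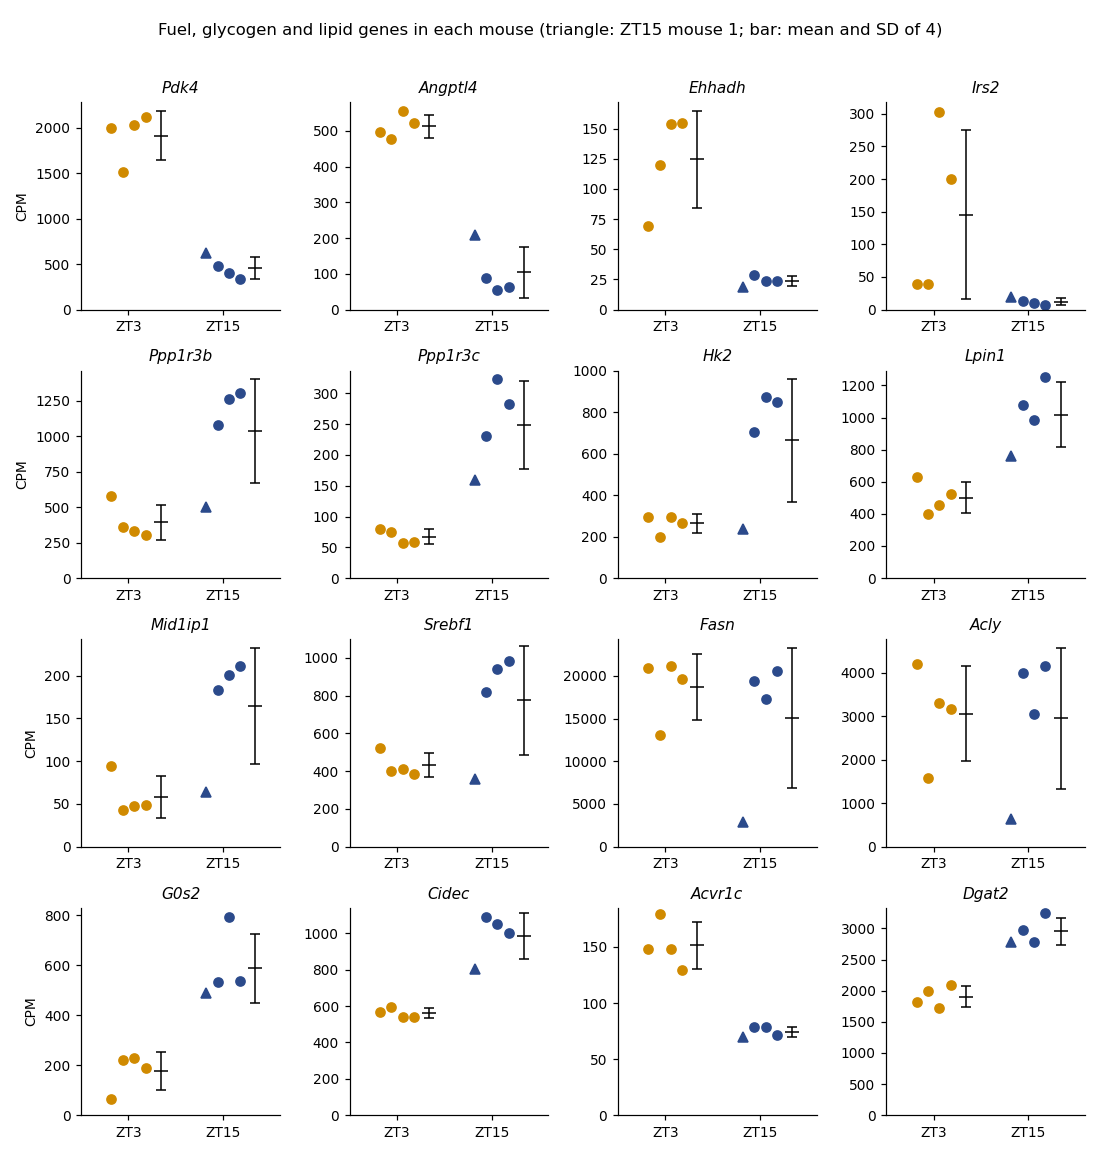
Each panel gives the CPM of 1 gene on a linear axis from 0 in the 4 mice of ZT3 (ochre) and the 4 of ZT15 (blue), with the mean and SD beside them; the triangle is mouse 1 of ZT15. Pdk4, Angptl4, Ehhadh, Irs2 and Acvr1c are lower in every mouse of ZT15, the triangle lies within the range of ZT3 for Hk2, Mid1ip1 and Ppp1r3b, and below it for Srebf1, Fasn and Acly.

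In the cAMP pathway and the early response more genes fell than rose. Of 35 genes of beta-adrenergic and cAMP signalling 8 were lower and 1 higher (25.7% called, median log2 fold change -0.21), and 4 of these calls were shared with the lane-centred difference. Without the 3 muscle-rich libraries 3 were lower, and with the muscle level as a covariate 10 were lower and 1 higher. Sik1, a salt-inducible kinase that is itself a cAMP target (chr17:31844250-31855804, minus strand), was at 53.5, 39.3, 199 and 115 CPM at ZT3 and at 8.51, 11.9, 15.6 and 14.0 CPM at ZT15 (log2 fold change -3.02 ± 0.74 SE, adjusted P = 0.0065). The groups did not overlap, but the mice of ZT3 differed widely among themselves and the call was just lost without the 3 muscle-rich libraries (adjusted P = 0.052). Nr4a3, an orphan nuclear receptor induced by cAMP, was at 1.08, 1.36, 29.1 and 7.58 CPM at ZT3 and at 1.26, 0.591, 1.22 and 0.997 CPM at ZT15, so that its fall rested on mice 3 and 4 of ZT3 (log2 fold change -3.25 ± 0.78 SE, adjusted P = 0.00556, and 0.112 without mouse 3 of ZT3).

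Receptors and an adenylyl cyclase were lower too. Tshr, the thyrotropin receptor, which couples to cAMP (chr12:91384563-91549808, plus strand), was at 23.8, 29.3, 26.4 and 20.9 CPM at ZT3 and at 3.42, 2.66, 2.45 and 3.40 CPM at ZT15 (log2 fold change -3.07 ± 0.27 SE, adjusted P = 1.92e-08). Every mouse of ZT15 was far below every mouse of ZT3, and Tshr was called in all 19 alternatives. Tshr is not a member of the cAMP list counted above. Adrb3, the beta-3 receptor and a marker of the tissue, named after its values were seen, was at 249, 213, 249 and 205 CPM at ZT3 and at 90.1, 98.5, 97.03 and 162 CPM at ZT15 (log2 fold change -1.03 ± 0.28 SE, adjusted P = 0.0139). It was not called in the lane-centred difference, where its sign turned (adjusted P = 0.905), nor without the 3 muscle-rich libraries (adjusted P = 0.188). Adcy5 had 21.0 ± 12.6 CPM at ZT3 and 6.64 ± 3.79 CPM at ZT15 and was called in 10 of 19 alternatives (log2 fold change -1.66 ± 0.51 SE, adjusted P = 0.0275, 0.094 without the 3 muscle-rich libraries and 0.108 in the lane-centred difference). Ucp1, a transcriptional target of this pathway, was at 2219, 2153, 1972 and 2192 CPM at ZT3 and at 1134, 1994, 1911 and 2033 CPM at ZT15 and did not pass (log2 fold change -0.27 ± 0.28 SE, adjusted P = 0.587). In 3 mice of ZT15 the level was near that of ZT3, and mouse 1 was lower.

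Among 28 immediate early genes 7 were lower and 1 higher (28.6% called), the last call being lost for each mouse left out, with a median log2 fold change of -0.92. Egr3, a zinc finger factor at low level, was at 0.72, 1.20, 8.64 and 4.82 CPM at ZT3 and at 0.21, 0.532, 0.291 and 0.293 CPM at ZT15 (log2 fold change -3.52 ± 0.86 SE, adjusted P = 0.00643). Btg2, Ccn1, Klf4 and Klf2, which act in growth arrest, matrix signalling and transcription, fell from 68.8 ± 34.5 to 24.9 ± 2.75 CPM, from 48.9 ± 9.19 to 17.9 ± 2.02 CPM, from 35.4 ± 11.8 to 16.299 ± 2.70 CPM and from 42.7 ± 11.6 to 22.6 ± 2.93 CPM (adjusted P = 0.0146, 0.0191, 0.0101 and 0.0195). Without mouse 3 of ZT3 the adjusted P was 0.0852 for Btg2, 0.0564 for Ccn1 and 0.0729 for Klf2, and the Ccn1 call was also lost without mouse 3 of ZT15 (0.0566) and that of Klf2 without mouse 2 of ZT15 (0.0565) or mouse 4 of ZT3 (0.0527). The summed level of the list was 568, 957, 1389 and 935 CPM at ZT3 and 533, 559, 462 and 552 CPM at ZT15, so that mouse 1 of ZT3 lay close to the level of ZT15 (exact permutation test, two-sided, P = 0.0286, the smallest value possible, and 0.143 after adjustment over 15 tests). Without the 3 muscle-rich libraries no member of the list was called by edgeR (13 had an unadjusted P under 0.05), and without mouse 3 of ZT3 4 were lower. With the muscle level as a covariate 9 were lower and 1 higher. Macrophage markers summed to 242 ± 44.7 CPM at ZT3 and 180.3 ± 52.6 CPM at ZT15 (exact permutation test, two-sided, P = 0.114), with 1 of 24, Cx3cr1, lower and none higher (its call was lost without mouse 3 of ZT3), and lymphocyte markers to 24.7 ± 5.53 CPM at ZT3 and 15.6 ± 2.44 CPM at ZT15 (exact permutation test, two-sided, P = 0.0571). All 16 tested lymphocyte markers had a fold change below 0 (median log2 fold change -0.68) and 1 was called. The part of both cell types in the falls of early response and matrix genes was not tested. The lane-centred difference shared 3 of the 8 early response calls, and those of Egr3, Btg2, Ccn1, Klf4 and the macrophage marker Cx3cr1 were lost (adjusted P = 0.0652, 0.0894, 0.185, 0.106 and 0.109).

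A glucocorticoid target, Fkbp5, had the highest positive log2 fold change among genes of at least 1 CPM that did not overlap between the mice, with the clock list left out. Fkbp5, a co-chaperone of the glucocorticoid receptor and one of its direct targets (chr17:28399094-28517527, minus strand), was at 5.52, 9.48, 7.83 and 5.94 CPM at ZT3 and at 63.8, 47.2, 40.3 and 30.1 CPM at ZT15, without overlap (log2 fold change 2.65 ± 0.36 SE, adjusted P = 1.45e-05). Tsc22d3, the glucocorticoid-induced leucine zipper protein (chrX:140539528-140600659, minus strand), was at 27.1, 36.0, 33.6 and 25.6 CPM and at 95.4, 96.4, 89.5 and 75.5 CPM (log2 fold change 1.54 ± 0.17 SE, adjusted P = 9.82e-07). Glul, glutamine synthetase, rose from 1213 ± 136 to 2563 ± 196 CPM (log2 fold change 1.08 ± 0.14 SE, adjusted P = 6.21e-06). These were the 3 risers among 21 tested genes of a list that holds the glucocorticoid receptor and its usual targets (23.8% called), of which 2 others, Cdkn1a and Errfi1, were lower, with the Errfi1 call lost for 5 of the 8 mice and both lost without the 3 muscle-rich libraries (adjusted P = 0.0752 and 0.215), and the median of the list was -0.04. In the lane-centred difference only Tsc22d3 of the 3 risers passed (adjusted P = 0.0401, against 0.0788 for Fkbp5 and 0.0693 for Glul). That difference called 1 higher and 6 lower members of the list, and Cdkn1a changed sign (adjusted P = 0.906).

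Secreted factors and amino acid transport gave single strong members. Lep, the satiety hormone leptin and more a white than a brown fat product, was at 64.6, 44.7, 48.5 and 32.4 CPM at ZT3 and at 275, 141, 181 and 199.6 CPM at ZT15, higher in every mouse of ZT15 (log2 fold change 2.07 ± 0.44 SE, adjusted P = 0.00228, and 0.401 in the lane-centred difference). It was the only one of 9 white fat markers to pass, and the list, led by Lep, summed to 223 ± 25.5 CPM at ZT3 and 373 ± 118 CPM at ZT15 (exact permutation test, two-sided, P = 0.0286, and 0.143 after adjustment over 15 tests). Nampt, the enzyme of NAD salvage, rose from 369 ± 41.2 to 584 ± 117 CPM (log2 fold change 0.66 ± 0.12 SE, adjusted P = 0.000626), and Nrg4, a factor secreted by brown fat, from 140.4 ± 15.5 to 188 ± 23.4 CPM (adjusted P = 0.00241, but 0.725 in the lane-centred difference, where its sign turned). Of 31 genes of glutamine and amino acid transport 6 were higher and 3 lower (29.0% called). Slc1a5, a glutamine carrier, rose to 1133 CPM (log2 fold change 0.48 ± 0.12 SE, adjusted P = 0.00662), whereas Slc1a4 and Slc7a1, carriers of neutral and of cationic amino acids, fell by 1.11 and by 0.98 on the log2 scale (adjusted P = 6.86e-05 and 0.000452). The calls of Nampt and Slc1a5 were lost in the lane-centred difference (adjusted P = 0.124 and 0.405). That difference called 1 higher and 4 lower members of the glutamine and amino acid transport list and shared 4 of its 9 calls.

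No nuclear gene of the respiratory chain passed the test. Of 189 tested genes of complexes I to V, the tricarboxylic acid cycle and the mitochondrial ribosome none passed edgeR's threshold, 12 had an unadjusted P under 0.05, and DESeq2 called 1. Their median log2 fold change was 0.07. Without mouse 1 of ZT15 4 complex I genes and 4 genes of complexes II to V were higher, and without mouse 2 of ZT3 2 of the latter were. Without mouse 1 of ZT15 2 genes of the mitochondrial ribosome and 1 of the tricarboxylic acid cycle were higher too, and the lane-centred difference called 3 complex I genes higher. Of 27 genes of mitochondrial biogenesis and dynamics 5 were higher and none lower (18.5% called), but 3 without mouse 3 or 4 of ZT15 or mouse 3 of ZT3. Twnk, the helicase of mitochondrial DNA, rose from 17.6, 17.0, 18.0 and 19.9 CPM to 26.1, 30.0, 27.3 and 28.4 CPM, without overlap (log2 fold change 0.62 ± 0.11 SE, adjusted P = 0.000238). Nrf1, a transcription factor of respiratory genes, rose from 11.0 ± 0.441 to 15.8 ± 1.44 CPM (adjusted P = 0.000202), and Pprc1, a coactivator related to PGC-1, from 12.8 ± 3.62 to 20.8 ± 3.74 CPM (adjusted P = 0.0274, but 0.228 without the 3 muscle-rich libraries and from 0.0756 to 0.104 without mouse 1 or 2 of ZT3 or mouse 3 or 4 of ZT15).

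Of 43 mitochondrial carriers of the SLC25 family 8 were higher and 3 lower (25.6% called, 5 higher without mouse 3 of ZT15 and 4 without mouse 4, and 1 lower without mouse 2 of ZT15 or mouse 4 of ZT3). Slc25a33, a pyrimidine nucleotide carrier, rose from 26.0, 22.2, 20.8 and 21.6 CPM to 36.4, 50.6, 55.9 and 52.9 CPM (log2 fold change 1.11 ± 0.15 SE, adjusted P = 1.85e-05), and the NAD carrier Slc25a51 from 341 ± 23.6 to 519 ± 77.6 CPM (adjusted P = 0.00239). Both were higher in every mouse of ZT15, and neither was called in the lane-centred difference (adjusted P = 0.158 and 0.621), which shared 3 of the 11 calls of the family. Of 15 tested protein and rRNA genes of the mitochondrial genome 4 were higher and 2 lower (40% called), but this split depended on single mice, with from 0 to 3 higher when each was left out. The ribosomal RNAs mt-Rnr1 and mt-Rnr2 rose from 1695 ± 157 to 2474 ± 368 CPM and from 3018 ± 442 to 4392 ± 673 CPM (adjusted P = 0.0155 and 0.0338), but without mouse 4 of ZT15 the adjusted P was 0.0676 and 0.131, and without mouse 3 of ZT3 0.0621 and 0.101. For mt-Rnr2 it was 0.0768 without mouse 3 of ZT15 and 0.0966 without mouse 2 of ZT3. Both rRNAs were called in the lane-centred difference (adjusted P = 9.89e-05 and 0.000238), which their high means at ZT0 (2587 and 5400 CPM) raise. The mt-Rnr1 call was just kept without the 3 muscle-rich libraries (adjusted P = 0.0486). By contrast the complex I gene mt-Nd1 fell from 25772, 24377, 23842 and 25535 CPM to 19156, 21361, 18969 and 19031 CPM (log2 fold change -0.34 ± 0.08 SE, adjusted P = 0.00467). Without the 3 muscle-rich libraries the calls of mt-Nd1 and mt-Rnr2 were lost (adjusted P = 0.094 and 0.139). The mt-Nd1 call was also lost in the lane-centred difference (adjusted P = 0.13). The remaining calls, mt-Co3, mt-Atp6 and mt-Nd6, were lost for 7, 7 and 6 of the 8 mice, without the 3 muscle-rich libraries (adjusted P = 0.0586, 0.117 and 0.246) and in the lane-centred difference, and near-identical nuclear copies or a gene on the opposite strand can take their reads.

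Transcription factors showed strong individual changes. Nfe2l2, the NRF2 regulator of antioxidant genes, was at 68.9, 54.6, 69.1 and 64.7 CPM at ZT3 and at 100.2, 133, 160.3 and 141 CPM at ZT15 (log2 fold change 1.06 ± 0.13 SE, adjusted P = 4.64e-06). Its relative Nfe2l3 went the other way, from 8.82, 8.12, 10.4 and 9.70 CPM to 1.47, 0.532, 0.35 and 0.293 CPM (log2 fold change -3.77 ± 0.43 SE, adjusted P = 1.12e-06). Both separated the time points fully and were called in all 19 alternatives. Of the 35 tested genes of the NRF2 and antioxidant list 4 were higher and 1 lower (14.3% called, 2 to 4 higher and 1 lower), the other risers being Gstt1, Gstm1 and Prdx6 with log2 fold changes of at most 0.67, of which the Gst genes have close relatives that may share reads. All 3 calls were lost without the 3 muscle-rich libraries (adjusted P from 0.0762 to 0.346) and in the lane-centred difference (from 0.187 to 0.486).

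Of 13 Kruppel-like factors 4 were lower and 1 higher (38.5% called, 0 higher and 2 to 4 lower). Klf2, Klf4 and the riser were already counted among the early response calls above. Klf11 was at 68.9, 27.7, 28.1 and 25.8 CPM at ZT3 and at 8.57, 13.3, 10.3 and 6.69 CPM at ZT15 (log2 fold change -1.95 ± 0.36 SE, adjusted P = 0.00047). Irf4, an interferon regulatory factor of fasting adipocytes, was at 25.7, 32.6, 146 and 56.2 CPM and at 8.41, 14.9, 16.7 and 15.9 CPM (log2 fold change -2.22 ± 0.60 SE, adjusted P = 0.0124), and mouse 3 of ZT3 was far above the others (adjusted P = 0.108 without it, and 0.0836 without the 3 muscle-rich libraries). Ebf1, an adipocyte lineage factor, fell from 107 ± 14.8 to 53.9 ± 5.28 CPM without overlap (log2 fold change -0.98 ± 0.15 SE, adjusted P = 8.38e-05), whereas its relative Ebf3 rose by 0.77 on the log2 scale (adjusted P = 0.00206). The lane-centred difference shared 2 of the 5 Kruppel-like factor calls.

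Of 34 nuclear receptors and coregulators 3 were higher and 5 lower (23.5% called), Nr4a3 among the latter. Without mouse 3 of ZT3 0 were higher and 2 lower, and without mouse 4 of ZT15 0 and 3. Vdr, the vitamin D receptor, named after its values were seen, was at 2.34, 2.29, 3.77 and 3.70 CPM at ZT3 and at 0.315, 0.591, 0.466 and 0.939 CPM at ZT15, without overlap (log2 fold change -2.38 ± 0.29 SE, adjusted P = 3.25e-06). The thyroid hormone receptor Thra was lower with a log2 fold change of -0.50 (adjusted P = 0.000641). The lane-centred difference shared 3 of the 8 calls.

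Of 30 genes of the integrated stress response and serine synthesis 5 were lower and 2 higher (23.3% called, 1 to 3 higher and 4 to 7 lower). The pseudokinase Trib3 fell from 14.3, 7.19, 8.18 and 11.9 CPM to 2.73, 5.14, 4.84 and 3.81 CPM, without overlap (log2 fold change -1.33 ± 0.21 SE, adjusted P = 9.56e-05). The transcription factor Atf5 fell from 119 ± 8.66 to 60.2 ± 7.75 CPM (adjusted P = 0.000566, but 0.92 in the lane-centred difference, where its sign turned), and the phosphatase subunit Ppp1r15a from 24.0 ± 7.653 to 11.0 ± 2.18 CPM (adjusted P = 0.0196, but 0.0686 without mouse 3 of ZT3, 0.065 without mouse 4 of ZT3, 0.0661 without mouse 4 of ZT15, 0.0907 without the 3 muscle-rich libraries and 0.13 in the lane-centred difference). Of 32 genes of the endoplasmic reticulum 4 were lower and none higher (12.5% called), with log2 fold changes from -0.61 to -0.20, and 2 were lower without mouse 4 of ZT15. In the lane-centred difference 3 of the 7 stress response calls and 3 of the 4 of the endoplasmic reticulum were shared.

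Further genes were named by the rule for the strongest changes or by their level. Cyp2b10, a drug-metabolising cytochrome P450 with close relatives that may share reads, was at 3.90, 11.3, 3.07 and 4.94 CPM at ZT3 and at 54.4, 26.2, 12.9 and 12.1 CPM at ZT15 (log2 fold change 2.18 ± 0.56 SE, adjusted P = 0.00899, and 0.0513 without mouse 1 of ZT15). Cys1, which encodes cystin of the primary cilium, rose from 0.807 ± 0.0801 to 4.13 ± 1.84 CPM (log2 fold change 2.35 ± 0.30 SE, adjusted P = 4.84e-06), and the deubiquitinase Usp2 from 14.7 ± 5.59 to 54.7 ± 10.9 CPM (log2 fold change 1.90 ± 0.26 SE, adjusted P = 1.63e-05). Among abundant genes Sh3pxd2a, a scaffold of podosomes, fell from 631, 712, 839 and 856 CPM to 203, 310.2, 383 and 401 CPM, without overlap (log2 fold change -1.23 ± 0.21 SE, adjusted P = 0.000276). Cldn5, the tight junction protein of endothelium, fell from 62.1 ± 13.6 to 20.1 ± 6.47 CPM (log2 fold change -1.63 ± 0.30 SE, adjusted P = 0.000451), one of 2 lower members of a list of endothelial and pericyte markers, the other being the pericyte marker Pdgfrb, while 3 of the 23 tested, the endothelial Flt1, Emcn and Sox17, were higher. Without mouse 2 of ZT3 1 was higher, and the Pdgfrb call was lost for 5 of the 8 mice. Without the 3 muscle-rich libraries the calls of Flt1, Emcn and Pdgfrb were lost (adjusted P = 0.171, 0.114 and 0.0738). The summed level of the list was 2446 ± 109 CPM at ZT3 and 2359 ± 194 CPM at ZT15 (exact permutation test, two-sided, P = 0.457). In the lane-centred difference the calls of Usp2, Sh3pxd2a and Cldn5 were lost (adjusted P = 0.693, 0.354 and 0.908), as were those of Flt1, Emcn and Sox17 (adjusted P = 0.0584, 0.0617 and 0.391).

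Counts in the remaining lists are read against the 14.2% of all genes that were called. The share was 37.5% for pentose phosphate genes, 26.3% for NAD metabolism, 22.7% for adipocyte transcription factors, 20.7% for adipokines, 20.5% for splicing and 18.2% for cytochromes P450, and at most 14.3% for the others. Of 29 adipokines and secreted factors 5 were higher and 1 lower (3 to 5 higher and 0 to 3 lower), and of 22 adipocyte transcription factors 2 were higher and 3 lower (1 to 2 higher and 2 to 3 lower). Of 22 cytochromes P450 3 were higher and 1 lower (2 to 4 higher and 1 lower), and of 26 thermogenic genes 1 was higher and 1 lower (1 higher and 1 lower), the last being Nrg4 and Pdk4. Of 19 genes of NAD metabolism 4 were higher and 1 lower (3 to 4 higher and 0 to 1 lower), with Nampt, Naprt, which starts NAD synthesis from nicotinic acid, and the deacetylase Sirt7 called whichever mouse was left out, although Naprt was not called without the 3 muscle-rich libraries (adjusted P = 0.0918). Of 8 pentose phosphate genes 3 were higher (1 to 3 higher), and H6pd, with a log2 fold change of 0.69, was called whichever mouse was left out. Of 39 splicing genes 5 were higher and 3 lower (2 to 5 higher and 3 to 4 lower), of 39 autophagy genes 3 were higher (3 to 4 higher and 0 to 2 lower), and of 28 genes of branched-chain amino acid breakdown 3 were higher and 1 lower (1 to 4 higher and 0 to 1 lower). Of 26 cholesterol synthesis genes 1 was higher and 1 lower (1 to 4 higher and 1 lower), the squalene synthase Fdft1 with a log2 fold change of 0.85 and Dhcr7 with -0.51, and the Dhcr7 call was lost without the 3 muscle-rich libraries (adjusted P = 0.159). Of 34 phospholipid and sphingolipid genes 3 were lower (0 to 2 higher and 1 to 3 lower), with the sphingomyelin synthase Sgms2 at -1.15 on the log2 scale, and of 30 peroxisomal genes 1 was higher and 3 lower (1 higher and 2 to 3 lower). Of 32 cell cycle genes 1 was higher and 2 lower (1 to 2 higher and 0 to 4 lower), with the kinase Wee1 at 1.29 on the log2 scale, and of 23 p53 and growth arrest genes 3 were lower (0 to 1 higher and 1 to 4 lower). Of 31 interferon-induced genes 1 was lower (0 to 1 lower), of 16 lymphoid markers 1 was lower (0 to 2 lower), of 10 nerve markers 1 was lower (0 to 1 lower) and of 21 haem genes 1 was higher (0 to 4 higher and 0 to 1 lower). None of 10 carbonic anhydrases and none of 8 blood cell markers passed edgeR's threshold (2 and 1 had an unadjusted P under 0.05, and DESeq2 called none). In the lane-centred difference the calls of Nampt, H6pd, Fdft1, Dhcr7, Sgms2 and Wee1 were lost (adjusted P = 0.124, 0.174, 0.0905, 0.972, 0.0882 and 0.491). That difference shared 5 of the 8 splicing calls, 4 of 5 in adipocyte transcription factors, 3 of 4 in cytochromes P450, 3 of 4 in peroxisomal genes, 2 of 5 in NAD metabolism, 1 of 3 in pentose phosphate genes, 1 of 3 in autophagy genes, 1 of 2 in thermogenic genes and the 1 lymphoid call, and none of those in adipokines, cholesterol, phospholipid and sphingolipid, branched-chain amino acid, cell cycle, p53, interferon, nerve and haem genes.

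The means at the other time points place these differences in the day. Hspa1b had 1.22 ± 0.273 CPM at ZT12 and 4.19 ± 1.54 CPM at ZT18, so that its level of 12.4 ± 7.43 CPM at ZT15 was high at that time point of lane 3 alone, and it was also high at ZT0 (11.8 ± 6.98 CPM). Nolc1 climbed from 26.4 ± 3.13 CPM at ZT3 over 36.9 ± 6.95 CPM at ZT9 to 61.8 ± 11.8 CPM at ZT15. Col4a1 went from 562 ± 35.1 CPM down over 428 ± 27.2 CPM at ZT9 to 312 ± 21.0 CPM. Tshr was already at 3.23 ± 0.654 CPM at ZT12, the value before its 2.98 ± 0.502 CPM at ZT15, and Irs2 stood out at ZT3 with 145 ± 129.8 CPM between 15.4 ± 10.3 CPM at ZT0 and 32.8 ± 4.15 CPM at ZT6. These means and SD are over 4 mice each and were not tested here.

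**Figure D4:**
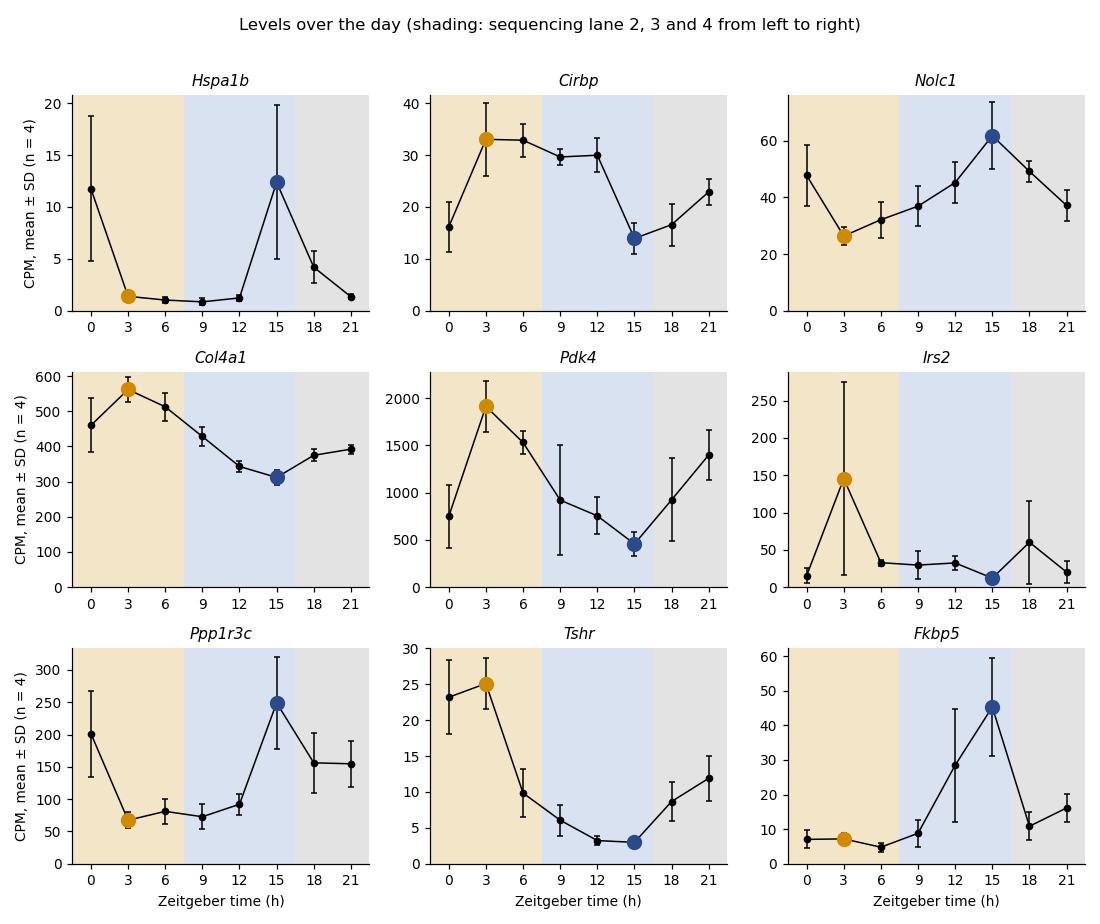
Each panel gives the mean ± SD in CPM of 4 mice at each of the 8 time points, on a linear axis from 0, with ZT3 in ochre and ZT15 in blue; the background shading marks the 3 sequencing lanes. Hspa1b, Ppp1r3c and Fkbp5 have their highest mean at ZT15, whereas Cirbp, Col4a1, Pdk4, Irs2 and Tshr have theirs at ZT3.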

How the data were processed

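RNA from iBAT of 32 mice was made into stranded libraries and sequenced in paired reads of 100 bases, and 8 of the libraries, of ZT3 and ZT15, are reported here. The authors aligned the reads to mm10 with GSNAP (version 2017-09-11) and counted them per gene with HTSeq (version 0.6.1) and Ensembl annotation 88, as the submitters' processing notes and the methods of the study state. The deposited values are raw counts per gene with no normalization, in 1 table whose columns all matched a label. Whether the counting used the strand was not stated.

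The table held 50686 genes, of which 20100 were 0 in every library and 310 had no symbol. After edgeR's filter on low counts, with the time point as group, 15505 genes with 99.9% of the counts were tested. TMM factors and 1 quasi-likelihood fit over all 32 libraries gave the contrast of ZT15 minus ZT3 (edgeR 4.0.16, limma 3.58.1, R 4.3.3), with Benjamini-Hochberg adjustment over all tested genes and a threshold of 0.05. Every adjusted P in the text comes from this edgeR test unless another tool is named. Summed levels and shares were compared by the exact permutation test, two-sided, whose smallest P for 4 against 4 mice is 0.0286. Each mouse is 1 sample, and replicates of a time point differed by at least 8.48 in chi-square per gene, so that all were counted as separate. At the smallest library a floor of 3 counts is 0.178 CPM, which covers counting error only.

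On simulated counts for this comparison with 15341 genes, the fit called 39 of 50 genes lowered and 34 of 49 raised 2-fold, 26 of 50 and 24 of 49 changed 1.5-fold, and 5 of 15143 unchanged genes.

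The comparison and the 60 gene lists were chosen with earlier results of these data known. Genes named are, for each list, up to 4 called members with the largest change at a mean of at least 5 CPM and the 2 most abundant members, and over all genes the 12 strongest changes in each direction among those of at least 1 CPM without overlap (clock list left out) and the 5 largest rises and falls in CPM. Others, including members given by their fold change alone, were chosen after their values were seen. Coordinates are those of GENCODE M21 on GRCm38, not the release the authors counted with, and upstream sequences are from RefSeq on GRCm38.p6. Alternatives were other scalings, DESeq2 (version 1.42.0), no filter, the 8 libraries alone, a replicate block, a test against a 1.5-fold change, the lane-centred difference and each mouse left out. The alternatives that leave out the 3 libraries richest in muscle transcripts (a summed marker level over 5000 CPM) or take that level as a covariate were chosen after seeing the data.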

Additional observations from a re-analysis of the deposited data

Results flagged for a closer look

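In 15 of 198 groups of 4 mice, 1 mouse lay far from the other 3 by Dixon's test, which chance alone does in about 1 in 20 groups. Mouse 1 of ZT15 was low for Ucp1 (1134 CPM against 1911 to 2033 CPM) and for the summed ribosome biogenesis genes (832 CPM against 939 to 955 CPM), and high for Btg2 (29.0 CPM against 22.9 to 24.0 CPM), for the summed white fat markers (549.7 CPM against 300.0 to 333 CPM) and for the share of mitochondrially encoded counts (26.7% against 22.8 to 23.3%). Mouse 2 of ZT15 was low for Hsph1 (63.1 CPM against 145 to 151 CPM) and for the summed heat-shock genes (3288 CPM against 4345 to 4532 CPM), and high for mt-Nd1 (21361 CPM against 18969 to 19156 CPM). Mouse 3 of ZT15 was high for G0s2 (794 CPM against 487 to 537 CPM). Mouse 4 of ZT15 was high for Adrb3 (162 CPM against 90.1 to 98.5 CPM) and low for Npm1 (42.1 CPM against 45.6 to 46.2 CPM). Mouse 1 of ZT3 was high for Mid1ip1 (94.9 CPM against 42.6 to 48.5 CPM) and Klf11 (68.9 CPM against 25.8 to 28.1 CPM). Mouse 2 of ZT3 was high for Adamts12 (11.7 CPM against 8.52 to 8.87 CPM) and for the summed skeletal muscle markers (11074 CPM against 106 to 229 CPM).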

How the results depend on the processing

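The count of genes that differed, 2198 (1069 higher and 1129 lower) with all libraries, was 2215 (1072 higher and 1143 lower) with DESeq2 size factors, 2334 (1141 higher and 1193 lower) with DESeq2, 1859 (1000 higher and 859 lower) with library size alone, 2189 (1074 higher and 1115 lower) without mitochondrially encoded genes and 1616 (813 higher and 803 lower) with no filter. It was 1499 (756 higher and 743 lower) with the 8 libraries alone, 88 (45 higher and 43 lower) against a 1.5-fold change and 1371 (701 higher and 670 lower) for the lane-centred difference. With single mice left out it ranged from 1480 (mouse 3 of ZT15) to 2645 (mouse 1 of ZT15), with 742 to 1245 higher and 715 to 1400 lower, and 736 lower without mouse 4 of ZT15. Of the alternatives chosen after seeing the data, leaving out the 3 libraries richest in muscle transcripts gave 1224 (591 higher and 633 lower) and the muscle level as a covariate 2247 (1138 higher and 1109 lower). With the replicate number as a block it was 2148 (1061 higher and 1087 lower), and the deviations of same-numbered mice correlated at -0.27, -0.34, -0.27 and 0.44, only number 4 correlating best with its own, so that the numbers do not pair the mice. The mitochondrially encoded share at ZT15 minus that at ZT3 was -0.4 percentage points and ranged from -1.34 to -0.0201. Of 177 named genes that were called, 1 lost its call with DESeq2, 39 with the 8 libraries alone and 64 without the muscle-rich libraries. In the lane-centred difference 102 lost it, 13 of these with a change of sign, and 14 named genes, with Klf9, which was not called at ZT15 against ZT3, changed sign, with log2 differences given in brackets: Lpl (-0.14), Pfkp (0.12), Cdkn1a (0.0833), Pnpla2 (-0.0738), Ivd (-0.00157), Ces1f (-0.00578), Pgls (-0.0138), Nrg4 (-0.0799), Slc16a1 (0.12), Klf9 (-0.60), Atf5 (0.0578), Fam124b (0.67), Arntl (0.51) and Adrb3 (0.10). Outside these, Col12a1, named by its call alone, changed sign too (-0.0621). The cause was not tested. With 4 mice a time point, the simulated 1.5-fold changes were missed in about as many genes as were called.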
